A study of Mus musculus with 6 samples.

Results

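MYC is a transcription factor that drives cell growth, and ribosome biogenesis is the making of new ribosomes in the nucleolus. The 36 genes described here are *Myc* and 35 genes whose products act in this process. They were chosen by symbol from a list of names, and all 36 were found among the 20327 gene symbols of the tag-count tables.

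RNA polymerase I transcribes the ribosomal DNA into a long precursor, which is modified by small nucleolar ribonucleoproteins (snoRNPs), cut, folded and joined with ribosomal proteins into the small (40S) and the large (60S) subunit. MYC binds DNA together with its partner MAX, preferentially at E-box sequences, and many genes of this machinery are among its best known targets. In fibroblasts, *Myc* is an immediate early gene that growth factors induce when resting cells enter the cell cycle, and in the colon it is a target of Wnt signaling in crypt epithelium. IL-11 is a cytokine of the IL-6 family that stromal cells make in inflamed tissue.

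RNA was compared between EGFP-Negative (IL-11-) and EGFP-Positive (IL-11+) cells sorted from colons of *Il11-Egfp* mice with colitis (n = 3 libraries per group). In the 5′Tag-seq method used, polyA RNA is reverse-transcribed and short reads near the 5′ end of each transcript are counted as tags. The question of this comparison was how fibroblasts that express IL-11 differ from those that do not. Both groups came from C57BL/6 mice of 9 to 15 weeks that carried the reporter and drank 1.5% dextran sulfate sodium (DSS) for 5 days, and cells were taken on day 7 from the Ter119-CD45-CD31-EpCAM- fraction. The reporter is a bacterial artificial chromosome with *Egfp* placed in *Il11*, so that EGFP reports the activity of this transgene and not IL-11 protein, and mice without the reporter or without DSS were not analysed here.

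Library totals were 1057170, 1078179 and 1169817 tags for the 3 IL-11- replicates and 1046538, 1022851 and 1049048 tags for the 3 IL-11+ replicates. Values below are given in the order of replicates 1, 2 and 3, IL-11- first. The floor was set at 3 tags, which equals 2.56 to 2.93 CPM (counts adjusted for library size) at these depths, and floors and intervals from tags cover counting error only. *Il11* itself, on whose transgene the sort was made, had 28, 51 and 89 tags in the IL-11- and 1357, 732 and 2658 in the IL-11+ libraries. Tags of the 36 genes made up 0.266%, 0.266% and 0.302% of the IL-11- and 0.242%, 0.253% and 0.259% of the IL-11+ libraries.

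The fibroblast label was checked against marker genes. All 10 fibroblast markers passed the filter on low genes (10 tags or more in 3 or more libraries), and their summed level was 22827, 22909 and 25273 CPM in IL-11- and 43103, 34860 and 30929 CPM in IL-11+ libraries. The most abundant of them, *Dcn*, which encodes the matrix proteoglycan decorin, had 14029, 11620 and 14508 tags against 24693, 16830 and 15091. The genes of the sorted-out surface proteins were at or near 0. *Ptprc* (CD45) had 1, 2 and 7 tags in the IL-11- and 0, 3 and 0 in the IL-11+ libraries, while *Pecam1* (CD31) and *Epcam* had at most 1 tag in any library.

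The gate does not remove smooth muscle cells and pericytes, and their markers differed strongly between the groups. The 10 smooth muscle markers summed to 2769, 3413 and 4286 CPM in IL-11- and to 141, 207 and 394 CPM in IL-11+ libraries, and 9 of the 10 fell at an adjusted p under 0.05, with a median log2 fold change of -3.92. *Myh11*, smooth muscle myosin and the most abundant of them, had 850, 943 and 1332 tags against 18, 18 and 84. The 8 pericyte markers summed to 2524, 2194 and 2006 CPM in IL-11- and to 946, 792 and 699.98 CPM in IL-11+ libraries. Of the 7 tested pericyte markers 5 fell, led by *Rgs5* with 1951, 1700 and 1800 tags against 186, 174 and 206, and 2 rose, the potassium channel genes *Kcnj8* and *Abcc9*, by 0.71 and 0.66 on the log2 scale. At an adjusted p under 0.05, DESeq2 called 5 pericyte markers lower and 1 higher. No smooth muscle or pericyte marker was at 0 in all 6 libraries. The share of tags from genes of the mitochondrial genome was 8.94%, 9.45% and 7.31% in IL-11- and 5.04%, 4.67% and 4.43% in IL-11+ libraries, without overlap. These markers and this share moved in the same comparison as every result below, and their part in those results was not tested.

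Of the 36 genes, 35 passed the filter and were tested, as part of 9334 genes. A gene was called by either of 2 rules. The first, that of the methods of the study, asks for a change of more than 2-fold at an adjusted p under 0.05, and the second for the adjusted p alone, because smaller changes are common among assembly factors. By the first rule 1 member, *Myc*, was lower in IL-11+ fibroblasts, where 6.37% of all tested genes were lower, and 0 members were higher, where 3.44% of all tested genes were. By the second rule 2 members, *Myc* and *Nop58*, were lower against 8.7% of all tested genes, and 0 were higher against 6.84%. At an unadjusted p under 0.05 edgeR's quasi-likelihood test gave 5 lower members, against 14.5% of all tested genes, and 1 higher member, against 12.2%. These shares of all tested genes also stand beside every later count at an unadjusted p under 0.05. By the second rule DESeq2 called 2 lower and 0 higher members, and 608 lower and 475 higher of all 9334 tested genes.

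Most fold changes of the members were small. Their median log2 fold change was 0.01 and that of all tested genes was -0.01. The median size of the log2 fold change, without regard to sign, was 0.17 for the members and 0.32 for all tested genes, at a median of 196 and 200 tags summed over the 6 libraries. Of the 35 tested members, 18 had a positive and 17 a negative log2 fold change. The libraries of both groups did not overlap in 6 members that were lower, where 16.7% of all tested genes were, and in 2 that were higher, where 14.5% were. Read against these shares, the counts are no result about the 36 genes as a group.

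**Figure D1:**
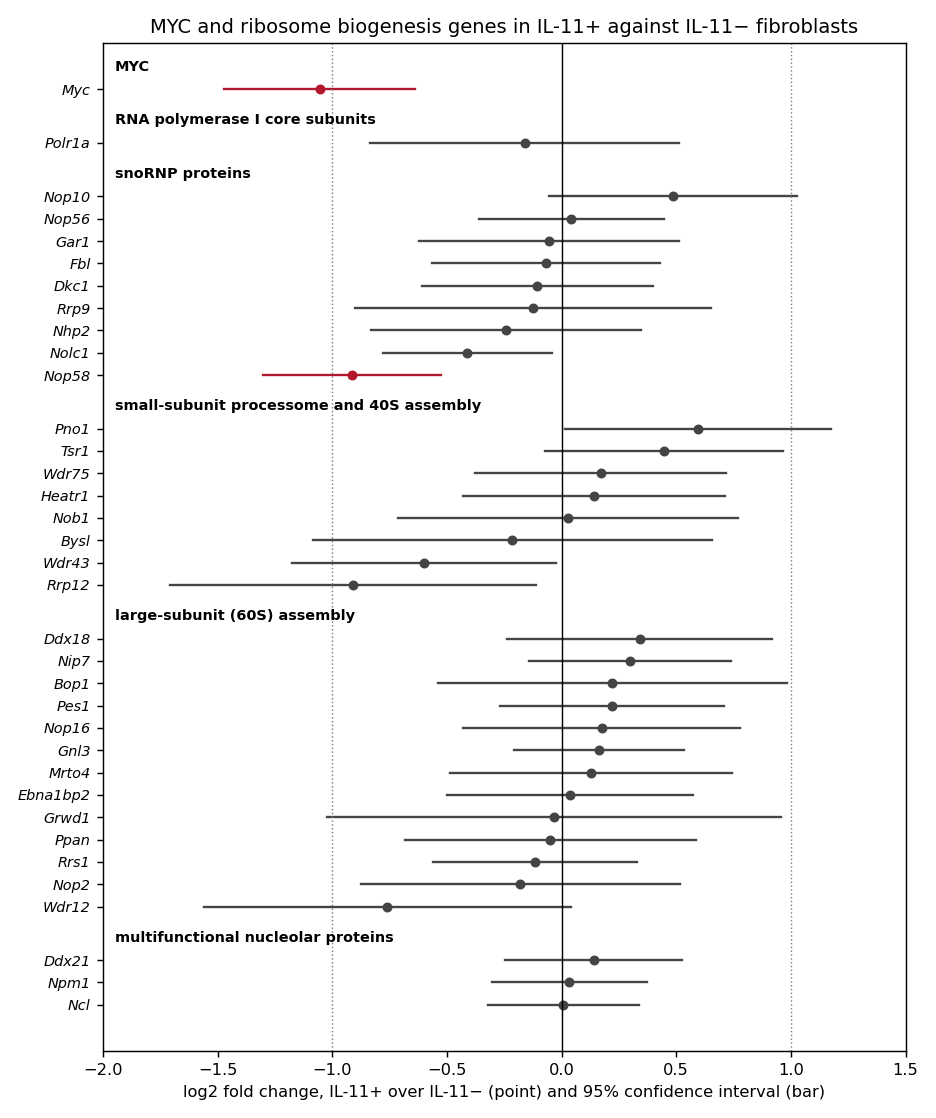
The plot of fold changes shows the log2 fold change of IL-11+ over IL-11- fibroblasts (x axis, points) with its 95% confidence interval (bars) for the 35 tested genes, grouped by role, with dotted lines at a fold change of 2 in either direction. Red marks *Myc* and *Nop58*, at -1.06 and -0.91, and grey marks the 33 genes whose adjusted p was 0.05 or more.

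*Myc* had 114, 83 and 120 tags in the IL-11- libraries (replicates 1 to 3) and 47, 46 and 43 in the IL-11+ libraries. Every IL-11+ library was below every IL-11- library, and the IL-11+ libraries lay close together. Scaled by TMM, which adjusts library sizes so that most genes do not change, the level was 95.2 ± 15.6 CPM in IL-11- and 45.8 ± 4.47 CPM in IL-11+ libraries (mean ± SD, n = 3). *Myc* fell by 1.06 on the log2 scale (SE 0.198, 95% confidence interval -1.47 to -0.64), with an adjusted p of 0.000943 (edgeR's quasi-likelihood test, Benjamini-Hochberg). This is 2.08-fold lower in IL-11+ fibroblasts, just past the fold change of 2 that the first rule asks for. Without IL-11- replicate 1 the log2 fold change was -0.97 (adjusted p = 0.00657) and without IL-11+ replicate 3 it was -0.98 (adjusted p = 0.00475), which is under a fold change of 2 while the adjusted p from edgeR stayed under 0.05. In the fit without mitochondrial and ribosomal protein genes it was -1.05 (adjusted p = 0.000935). In such bulk samples, fewer cells that express a gene and less RNA of it per cell cannot be told apart. *Myc* lies on chromosome 15 of GRCm38, at 61985391 to 61990374 on the plus strand, and has 3 exons.

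Other members of the network in which MYC works were examined as a list of 13 symbols. The list holds *Mlx*, *Mlxip*, MYC paralogs, MAX, and the MXD, MNT and MGA proteins that compete for MAX. Of these, 8 were tested, and edgeR's quasi-likelihood test called 0 in either direction by both rules, with 2 lower at an unadjusted p under 0.05 and 0 calls by DESeq2. *Mxi1*, which encodes a repressor that pairs with MAX, had 24, 21 and 20 tags in the IL-11- and 16, 4 and 4 in the IL-11+ libraries. Its log2 fold change was -1.26 (SE 0.461, adjusted p = 0.0752 by edgeR), and with the replicate block, which takes same-numbered libraries of both groups as pairs, it was -1.34 with an adjusted p of 0.0152. *Mga*, a MAX-binding repressor, had 187, 171 and 174 tags against 98, 121 and 133. Its groups did not overlap, and its log2 fold change of -0.45 had an adjusted p of 0.0877 by edgeR, and of 0.0429 with the replicate block. *Mxd1*, whose product opposes MYC, had a log2 fold change of 0.59 (95% confidence interval -0.03 to 1.22).

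Proteins that control the turnover of MYC or act with it at DNA formed a second list, in which 10 of 12 symbols were tested and 0 were called by either rule with edgeR, with 1 higher at an unadjusted p under 0.05 and 0 calls by DESeq2. The median log2 fold change of the list was 0.11. *Ruvbl1*, an ATPase of chromatin remodeling complexes that bind MYC, had 18, 23 and 37 tags in the IL-11- and 36, 34 and 34 in the IL-11+ libraries, with a log2 fold change of 0.59 and an adjusted p of 0.176. *Trrap*, a scaffold that MYC recruits, stood at 0.44 and *Fbxw7*, the ubiquitin ligase subunit that marks MYC for degradation, at 0.29, both with intervals that included 0.

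RNA polymerase I is represented by its core subunits. *Polr1a*, the largest catalytic subunit, had 33, 17 and 25 tags in the IL-11- and 23, 20 and 17 in the IL-11+ libraries. The groups overlapped, and the log2 fold change was -0.16 with a 95% confidence interval of -0.83 to 0.51, or 0.561 to 1.43 as a ratio of IL-11+ to IL-11-. *Polr1b*, the other large subunit, was the member with the fewest tags and the only one under the filter. It had 3, 3 and 4 tags in the IL-11- and 8, 14 and 10 in the IL-11+ libraries. The IL-11- libraries stood at about the floor of 3 tags and every IL-11+ library was higher. The scaled levels of 2.99 ± 0.254 and 10.7 ± 3.05 CPM (mean ± SD, n = 3) gave p = 0.1 in a two-sided exact permutation test, the smallest value that 3 against 3 libraries allow. The permutation test did not take same-numbered libraries as pairs. In the fit without a filter on low genes, over all 20327 symbols, *Polr1b* had a log2 fold change of 1.84 (SE 0.585) and an adjusted p of 0.0228 by edgeR.

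Of the other polymerase I genes, which include further subunits and the initiation factors UBTF, RRN3 and the TAF1 group, 11 of 15 symbols in the table were tested. None was called by edgeR's quasi-likelihood test or by DESeq2, 1 was higher at an unadjusted p under 0.05, and the median log2 fold change was 0.06. That gene, *Baz2a*, encodes a subunit of a complex that silences ribosomal DNA, and had 98, 54 and 69 tags against 104, 82 and 90. Its log2 fold change was 0.48 with an adjusted p of 0.178, and 0.50 with an adjusted p of 0.0446 with the replicate block. All 11 intervals lay within a fold change of 2 in both directions.

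The snoRNP proteins form 2 classes of particles. Box C/D particles hold FBL, the methyltransferase, with NOP56 and NOP58, and box H/ACA particles hold DKC1, the pseudouridine synthase, with GAR1, NHP2 and NOP10. RRP9 belongs to the U3 particle, and NOLC1 is a chaperone of both classes. Of these 9 members, 1 fell by the second rule, by which 8.7% of all tested genes fell, and 8 did not pass, with a median log2 fold change of -0.11.

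*Nop58* was the member that fell. It had 261, 347 and 305 tags in the IL-11- and 124, 125 and 188 in the IL-11+ libraries, so that the groups did not overlap, and IL-11+ replicate 3 was the highest of its group. The scaled level was 276 ± 44.5 CPM against 146 ± 29.0 CPM (mean ± SD, n = 3). *Nop58* fell by 0.91 on the log2 scale (SE 0.184, 95% confidence interval -1.30 to -0.53), or 1.88-fold, with an adjusted p of 0.00171 (edgeR's quasi-likelihood test, Benjamini-Hochberg). Leaving out single libraries moved its log2 fold change between -1.09 and -0.79, with adjusted p from 0.000584 to 0.0193. It was -1.0007 without IL-11- replicate 1 and -1.09 without IL-11+ replicate 3, so that in these 2 fits, in which *Myc* was under a fold change of 2, *Nop58* was the member called by the first rule. The gene lies on chromosome 1 of GRCm38, at 59684971 to 59719044 on the plus strand, with 13 exons. As for *Myc*, the smooth muscle and pericyte markers given above moved with this result, and their part in it was not tested.

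The partners of NOP58 in the box C/D particle were not called. *Nop56* had 76, 92 and 127 tags in the IL-11- and 98, 92 and 79 in the IL-11+ libraries, and its log2 fold change was 0.04 (95% confidence interval -0.36 to 0.45). *Fbl* had 64, 61 and 121 tags against 60, 89 and 58, with a log2 fold change of -0.07 (95% confidence interval -0.57 to 0.43). Both intervals lay above the -0.91 of *Nop58*. The interval of *Nop58* itself, -1.30 to -0.53, overlapped that of *Fbl* and lay below that of *Nop56*. The difference between these genes was not tested. The tags of *Nop58* per tag of *Nop56* were 3.43, 3.77 and 2.40 in IL-11- and 1.27, 1.36 and 2.38 in IL-11+ libraries, so that replicate 3 had nearly the same ratio in both groups. This ratio was chosen after its values were seen. In 50-nt windows of the first 300 nt of the transcripts, 42.8% of those of *Fbl* and 13.8% of those of *Nop56* were also found in transcripts of other genes, mostly pseudogenes, against 1.87% for *Nop58* and 0 for *Myc*, so that counts of *Fbl* and *Nop56* are less certain.

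*Nolc1* had 146, 129 and 152 tags in the IL-11- and 108, 81 and 98 in the IL-11+ libraries. The groups did not overlap, but the log2 fold change of -0.41 (SE 0.176) did not pass the test (adjusted p = 0.135 by edgeR). *Nop10*, the smallest H/ACA protein, had 23, 29 and 26 tags against 33, 32 and 33, again without overlap, with a log2 fold change of 0.49 and an adjusted p of 0.245. The other H/ACA genes *Dkc1*, *Gar1* and *Nhp2* and the U3 gene *Rrp9* had log2 fold changes from -0.24 to -0.05, and their groups overlapped. Among further snoRNP and snoRNP assembly genes, 11 were tested, 0 were called by edgeR or DESeq2, 3 were lower at an unadjusted p under 0.05, and the median log2 fold change was -0.21. Those 3 were *Naf1*, an H/ACA assembly factor, with 45, 33 and 35 tags against 14, 12 and 30, *Znhit3*, a box C/D assembly factor, and *Coil*, the scaffold of Cajal bodies. Their log2 fold changes were -0.86, -0.89 and -0.96 with adjusted p of 0.0822, 0.141 and 0.146 by edgeR, and *Naf1* had an adjusted p of 0.03 with the replicate block.

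**Figure D2:**
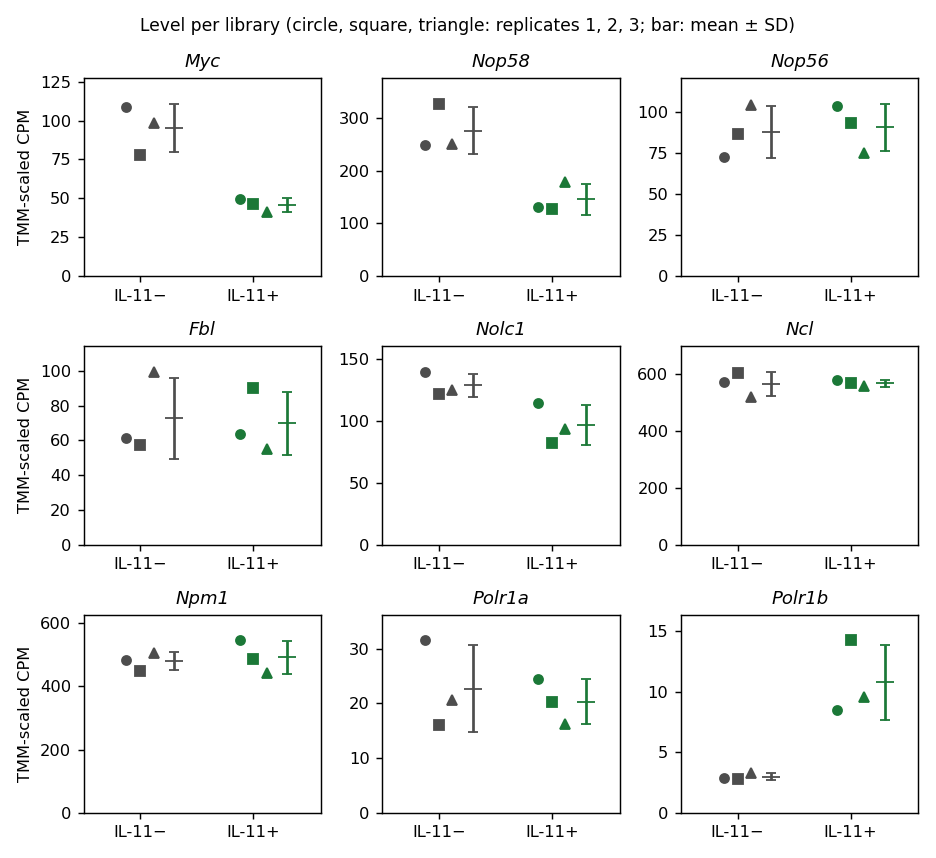
The plot of levels per library shows TMM-scaled CPM (y axis, from 0) of 9 member genes in the 3 IL-11- (grey) and 3 IL-11+ (green) libraries, with the mean ± SD beside each group. *Myc* and *Nop58* are lower in every IL-11+ library, *Nop56*, *Fbl*, *Ncl*, *Npm1* and *Polr1a* overlap between the groups, and *Polr1b* stands at 2.99 against 10.7 CPM on average.

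The small-subunit members act in the processome, the large particle that forms on the growing precursor, or in later steps of 40S maturation. None of these 8 was called by edgeR's quasi-likelihood test or by DESeq2, and the median log2 fold change was 0.08. At an unadjusted p under 0.05 by edgeR, 2 were lower and 1 was higher, where 14.5% and 12.2% of all tested genes were. *Rrp12*, needed for export of the subunits, had 15, 14 and 22 tags in the IL-11- and 9, 7 and 8 in the IL-11+ libraries. Although its groups did not overlap and its log2 fold change of -0.91 was close to that of *Nop58*, its interval of -1.71 to -0.11 was wide and the adjusted p was 0.125 by edgeR, at a level near the filter.

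*Wdr43*, a processome subunit, had 39, 39 and 65 tags in the IL-11- and 17, 31 and 36 in the IL-11+ libraries, with a log2 fold change of -0.60 and an adjusted p of 0.166. *Pno1*, a factor that holds the immature end of the small-subunit RNA, went the other way, with 16, 25 and 31 tags against 30, 35 and 32, a log2 fold change of 0.59 and an adjusted p of 0.175 by edgeR. Its partner *Nob1*, the endonuclease that makes the final cut of that RNA, was among the 3 members with the largest p. It had 24, 16 and 33 tags in the IL-11- and 20, 33 and 13 in the IL-11+ libraries, with a log2 fold change of 0.03 and a 95% confidence interval of -0.71 to 0.77. *Tsr1*, a GTPase-like factor of late 40S particles, stood at 0.45 (95% confidence interval -0.07 to 0.96). *Heatr1*, *Wdr75* and *Bysl* ranged from -0.21 to 0.17.

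A wider list of 40S assembly genes gave 55 tested symbols, of which 1 fell by the second rule (8.7% of all tested genes), 0 rose by edgeR or DESeq2, 4 were higher and 2 lower at an unadjusted p under 0.05, and the median log2 fold change was 0.01. The gene that fell was *Nop14*, a processome protein, with 63, 62 and 62 tags in the IL-11- and 25, 28 and 40 in the IL-11+ libraries. All IL-11+ libraries were below the IL-11- libraries, and it fell by 0.85 on the log2 scale (SE 0.23, adjusted p = 0.015 by edgeR). *Riok1* and *Riok3*, atypical kinases of late 40S particles, had log2 fold changes of 0.59 and 0.39 and did not pass, with adjusted p of 0.117 and 0.138.

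The 13 members of large-subunit assembly include the PES1, BOP1 and WDR12 complex, the RNA methyltransferase NOP2, the helicase DDX18 and the GTPase nucleostemin, encoded by *Gnl3*. None was called by edgeR or DESeq2, 0 had an unadjusted p under 0.05, and the median log2 fold change was 0.13, with a range from -0.76 to 0.34. *Wdr12* was lowest, with 23, 14 and 16 tags in the IL-11- and 9, 8 and 11 in the IL-11+ libraries, which did not overlap. Its log2 fold change was -0.76 (SE 0.382) and its adjusted p was 0.216 by edgeR. Its partners *Pes1* and *Bop1* both stood at 0.22, with intervals of -0.27 to 0.71 and -0.54 to 0.98. *Gnl3*, the member of this group with the most tags, had 108, 117 and 129 tags against 122, 131 and 100, and a log2 fold change of 0.16 (95% confidence interval -0.21 to 0.53).

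*Ddx18* had the largest positive value of the group, 0.34, with an adjusted p of 0.481. *Grwd1*, a histone-binding protein that associates with early 60S particles, was among the 3 members with the largest p and had 10, 8 and 13 tags in the IL-11- and 5, 16 and 6 in the IL-11+ libraries. With so few tags its 95% confidence interval ran from -1.03 to 0.96, so that a difference close to 2-fold was not detectable. The remaining members *Nop2*, *Nop16*, *Nip7*, *Mrto4*, *Ebna1bp2*, *Rrs1* and *Ppan* had overlapping groups and log2 fold changes from -0.18 to 0.30. Windows shared with other transcripts made up 40.4% for *Ddx18*, 30.2% for *Pes1* and 16.8% for *Mrto4*, so that these counts are less certain.

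Among 55 further tested 60S assembly symbols, 1 rose by the second rule (6.84% of all tested genes), 0 fell by edgeR or DESeq2, 5 were higher and 3 lower at an unadjusted p under 0.05, and the median log2 fold change was 0.07. *Gnl1*, a GTP-binding protein, had 39, 35 and 59 tags in the IL-11- and 47, 69 and 85 in the IL-11+ libraries. It rose by 0.76 on the log2 scale (SE 0.233, adjusted p = 0.0333 by edgeR), and DESeq2 called 0 genes of this list. *Senp3*, a SUMO protease of the nucleolus, had 27, 20 and 33 tags against 32, 49 and 41, with a log2 fold change of 0.77 and an adjusted p of 0.0547, or 0.0303 with the replicate block. *Spata5*, an ATPase that recycles a 60S factor, had 10, 9 and 16 tags against 26, 18 and 18, with a log2 fold change of 0.99 and an adjusted p of 0.0685 by edgeR.

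The multifunctional nucleolar proteins nucleolin, nucleophosmin and the helicase DDX21 act from polymerase I transcription to late assembly, and their genes had the most tags of all members. *Ncl* had 600, 639 and 634 tags in the IL-11- and 547, 558 and 583 in the IL-11+ libraries. After scaling these were 565 ± 41.3 and 567 ± 11.9 CPM (mean ± SD, n = 3), and the log2 fold change of 0.01 had a 95% confidence interval of -0.32 to 0.34, the narrowest among the members. *Npm1* had 507, 477 and 615 tags against 514, 479 and 463, with a log2 fold change of 0.03 (95% confidence interval -0.30 to 0.37). *Ddx21* had 207, 213 and 348 tags against 214, 231 and 307, with a log2 fold change of 0.14 (95% confidence interval -0.25 to 0.52). For all 3 genes a change of 1.5-fold lay outside the interval under TMM scaling. Shared windows made up 18.3% for *Npm1*, which has many pseudogenes.

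A p that misses the threshold does not show equal levels, so the intervals were counted. Of the 35 tested members 26 had a 95% confidence interval within a fold change of 2 in both directions, 8 of them within 1.5, and 9 did not. These intervals come from the main fit, which did not pair the libraries. Summed over the 35 assembly genes without *Myc*, the level was 2573, 2620 and 2805 CPM in IL-11- and 2631, 2584 and 2550.1 CPM in IL-11+ libraries. Without *Nop58* the sums were 2324, 2293 and 2555 CPM against 2499, 2457 and 2371 CPM. The groups overlapped in both sums, and IL-11- replicate 3 was the highest library in each. Genes with many tags weigh most in these sums. *Ncl* and *Npm1* averaged 565 and 479 CPM in IL-11- and 567 and 491 CPM in IL-11+ libraries.

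The products that these factors assemble were examined next. Ribosomal RNA lacks a polyA tail, so that its tags in polyA libraries are no measure of its amount. *Rn45s*, the precursor entry, also spans the mature RNAs cut from it, so that its tags are not specific to the precursor. It made up 2.96%, 3.07% and 3.41% of tags in IL-11- and 3.92%, 3.61% and 3.47% in IL-11+ libraries, without overlap. Its log2 fold change of 0.30 did not pass the test (SE 0.193, adjusted p = 0.346 by edgeR). *Rn18s*, also without overlap, and *Rn28s1* had log2 fold changes of 0.28 and -0.005, with adjusted p of 0.374 and 0.992 by edgeR. All 79 listed genes of cytosolic ribosomal proteins were tested. They made up 6.71%, 6.39% and 5.87% of tags in IL-11- and 6.03%, 5.69% and 5.86% in IL-11+ libraries, and their median log2 fold change was -0.04. By the second rule 3 were higher and 1 was lower, where 6.84% and 8.7% of all tested genes were. Of the 79 intervals, 77 lay within a fold change of 2. With the replicate block 7 were higher and 2 lower by the second rule, where 9.33% and 11.2% of all tested genes were.

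*Rpl28*, a protein of the large subunit, was the ribosomal protein gene called by the first rule. It had 554, 661 and 591 tags in the IL-11- and 1363, 1115 and 1053 in the IL-11+ libraries, without overlap, and rose by 1.13 on the log2 scale (SE 0.181, adjusted p = 0.00021 by edgeR), or 2.19-fold. *Rpl38* rose by 0.62 and *Rpl23* by 0.55, with adjusted p of 0.0367 and 0.038. Ribosomal protein genes have many processed pseudogenes, so that their counts are uncertain where tags could be split.

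MYC targets outside ribosome assembly were described from a list of 42 genes for nucleotide and polyamine synthesis, chaperones, translation factors and cell cycle genes, of which 36 were tested. By the first rule 1 fell and 0 rose, and by the second rule 1 fell and 3 rose (8.7% and 6.84% of all tested genes). At an unadjusted p under 0.05 by edgeR, 8 were higher and 3 lower (12.2% and 14.5% of all tested genes). DESeq2 called 0 higher and 1 lower by the first rule, and 2 higher and 1 lower by the second. The median log2 fold change was 0.04. *Impdh2*, which encodes the rate-limiting enzyme of guanine nucleotide synthesis, had 98, 129 and 166 tags in the IL-11- and 41, 57 and 76 in the IL-11+ libraries. Every IL-11+ library was lower, and *Impdh2* fell by 1.01 on the log2 scale (SE 0.21, adjusted p = 0.00218 by edgeR).

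The genes that rose in this list did so by less than 2-fold. *Nme1*, a nucleoside diphosphate kinase, had 63, 73 and 77 tags in the IL-11- and 122, 120 and 104 in the IL-11+ libraries and rose by 0.86 on the log2 scale (SE 0.18, adjusted p = 0.00224 by edgeR). *Hspe1*, a mitochondrial co-chaperonin, had 113, 111 and 128 tags against 125, 166 and 198 and rose by 0.63 (adjusted p = 0.0185). *Odc1*, the first enzyme of polyamine synthesis and a textbook MYC target, had 151, 202 and 278 tags against 241, 238 and 389 and rose by 0.62 (adjusted p = 0.0423). With the replicate block 5 genes of the list were higher and 3 lower by the second rule, against 9.33% and 11.2% of all tested genes.

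The nuclear exosome, which trims the precursor, and the genes of TOR signaling and translation control, which set the demand for ribosomes, gave 0 calls in 14 tested genes each, by edgeR and by DESeq2. In the exosome list 0 genes, and in the TOR list 1 higher gene, had an unadjusted p under 0.05, and the median log2 fold changes were -0.02 and 0.22. The gene with the smallest p of the TOR list was *Larp1*, a regulator of messenger RNAs for ribosomal proteins, with 77, 59 and 76 tags against 75, 94 and 84, a log2 fold change of 0.41 and an adjusted p of 0.163. *Eif3a*, an initiation factor subunit, stood at 0.31 and *Deptor*, an inhibitor of TOR, at -0.42. The exosome list also holds *Xrn2*, which encodes a nuclease outside the exosome. In this list *Xrn2*, *Exosc5* and *Exosc9* had log2 fold changes of 0.32, -0.71 and -0.46.

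Stalled ribosome assembly is known to stabilize p53, and 13 genes of this response were tested. Of these, 2 fell and 0 rose by both rules, where 6.37% of all tested genes fell by the first and 8.7% by the second. At an unadjusted p under 0.05 by edgeR, 3 were lower and 0 higher, where 14.5% and 12.2% of all tested genes were. DESeq2 called 1 lower and 0 higher by either rule, and the median log2 fold change was -0.11. *Cdkn1a*, which encodes the cell cycle inhibitor p21, had 601, 542 and 588 tags in the IL-11- and 196, 194 and 259 in the IL-11+ libraries. The groups were far apart, and *Cdkn1a* fell by 1.26 on the log2 scale (SE 0.167, adjusted p = 2.71e-05 by edgeR). *Trp53inp1* had 137, 75 and 43 tags against 48, 18 and 21, overlapped between the groups and fell by 1.41 (SE 0.401, adjusted p = 0.0214). *Sesn1*, another p53 target, had 73, 22 and 18 tags against 16, 15 and 13, with a log2 fold change of -1.22 and an adjusted p of 0.0885, or 0.0131 with the replicate block.

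Of 25 proliferation genes only 7 had enough tags to be tested, so that cycling cells could hardly be followed in these data. By edgeR's quasi-likelihood test 1 fell by both rules (6.37% and 8.7% of all tested genes), 0 rose, 2 were lower and 0 higher at an unadjusted p under 0.05, DESeq2 called 0, and the median log2 fold change was -0.33. *Rrm1*, a subunit of ribonucleotide reductase, had 13, 28 and 41 tags in the IL-11- and 11, 9 and 9 in the IL-11+ libraries and fell by 1.31 (SE 0.389, adjusted p = 0.0267). *Mcm6*, a subunit of the replicative helicase, had 9, 14 and 34 tags against 7, 5 and 11, and *Pcna*, the sliding clamp of DNA replication, had 222, 173 and 225 tags against 142, 144 and 155. Neither passed, with adjusted p of 0.124 and 0.207 by edgeR.

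Markers of further cell types were low. The endothelial, glial and mesothelial sums did not overlap between the groups, while the immune, epithelial and erythroid sums did. The 14 immune markers summed to 25.8, 49.0 and 31.2 CPM in IL-11- and 47.7, 21.3 and 21.9 CPM in IL-11+ libraries, and none had enough tags to be tested. The glial marker *Gfap*, an intermediate filament, fell, with 22, 23 and 26 tags in the IL-11- and 1, 0 and 1 in the IL-11+ libraries. The endothelial list summed to 43.9, 65.0 and 58.3 CPM against 3.18, 10.2 and 15.3 CPM, with *Esam* the gene with the most tags over the 6 libraries, at 31, 62 and 58 tags against 1, 2 and 7, while 5 of the 8 endothelial markers had at most 3 tags in any library. The epithelial list summed to 31.5, 25.4 and 52.6 CPM against 9.54, 13.2 and 25.7 CPM, with *Lgals4* on top at 29, 25 and 40 tags against 7, 10 and 18. Of the 10 epithelial markers 6 had at most 3 tags in any library. Mesothelial markers summed to 13.4, 5.65 and 22.2 CPM against 0, 0 and 1.91 CPM, and erythroid markers to 90.7, 0 and 305 CPM in IL-11- and 19.1, 2.03 and 19.1 CPM in IL-11+ libraries, with *Hbb-bs* the most abundant. In the fibroblast list 4 genes rose and 1 fell by the second rule. *Pdpn* (podoplanin) and *Col3a1* rose by 1.06 and 1.04 on the log2 scale, *Thy1* by 0.88 and *Dcn* by 0.67, and *Lum* fell by 0.64. With the replicate block 5 fibroblast markers rose by the second rule, with *Col1a2* called as well, and 1 fell. The part of these cell types in the results for *Myc* and *Nop58* was not tested.

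Because MYC and MAX bind E-boxes, promoters of the members were searched for the letters CACGTG, which read the same on both strands. RefSeq promoter windows of 300 bases (250 before and 50 after the start, GRCm38.p6) were at hand for 30 of the 36 members, and *Myc*, *Fbl*, *Rrp12*, *Bop1*, *Rrs1* and *Npm1* are named only. The letters were found in 6 of the 30 (20%), in 898 of 7175 tested genes with a window (12.5%) and in 2187 of all 27025 genes of the table (8.09%). These are shares of genes, given without a test, and a match is no proof of binding. The windows of *Nop58* and *Nolc1* did not hold the letters, which says nothing about MYC at these genes. The 6 matches are shown with 10 bases on either side where the window allows, 5′ to 3′ on the strand of the gene, with the E-box in capitals and the GENCODE annotation at the motif.
*Nop2* (chr6:125131813-125131838, plus strand, upstream of the gene): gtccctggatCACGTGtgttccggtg
*Wdr43* (chr17:71616222-71616247, plus strand, 5′ untranslated region): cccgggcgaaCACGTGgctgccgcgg
*Tsr1* (chr11:74898094-74898119, plus strand, 5′ untranslated region): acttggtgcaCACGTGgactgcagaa
*Pno1* (chr11:17211540-17211562, minus strand, 5′ untranslated region): tacaaccacgCACGTGttcctct
*Pes1* (chr11:3963967-3963992, plus strand, 5′ untranslated region): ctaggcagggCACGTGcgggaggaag
*Grwd1* (chr7:45830740-45830765, minus strand, coding sequence): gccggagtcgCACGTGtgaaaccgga

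The motif of *Nop2* begins 60 bases before the start of transcription and the others lie within 50 bases after it. None of the 6 genes was called in the comparison. Their log2 fold changes were -0.18 for *Nop2*, -0.60 for *Wdr43*, 0.45 for *Tsr1*, 0.59 for *Pno1*, 0.22 for *Pes1* and -0.03 for *Grwd1*, so that both signs occurred among genes with the same letters near the start.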

How the data were processed

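The deposited values are tag counts per gene symbol, without normalization. According to the methods and the submitters' processing notes, the authors used Cutadapt 1.18 for trimming and Bowtie2 2.2.5 for mapping to mouse RefSeq transcripts (mm10), took the tags of each gene as its count, and compared groups in R 3.5.1 with TCC. How tags that map to several genes were treated is not given in the sources used here.

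The filter on low genes kept 9334 of 20327 symbols (10 tags or more in 3 or more libraries). These were scaled by TMM and tested by the quasi-likelihood method of edgeR 4.0.16 under R 4.3.3, and p-values were adjusted over all tested genes after Benjamini and Hochberg. CPM use the TMM-scaled total of tested genes, except the floor, which uses the total of all tags. Positions and exons come from GENCODE mouse release M21 (GRCm38), promoter windows from RefSeq. The replicate numbers come from the labels, and the methods name 3 mice. Same-numbered libraries of both groups deviated from their group means together (r of 0.232, 0.22 and 0.27 for replicates 1, 2 and 3, over the 5064 genes whose mean reached 30 tags), so that the numbers were taken to pair the libraries. The main fit did not use these pairs, so that its SE, intervals and adjusted p are unpaired. With the replicate block 871 of all tested genes were higher and 1048 lower by the second rule, against 638 and 812 in the main fit.

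The members and lists were chosen with earlier results of these data known. All 36 members are accounted for. Values per library are given for *Myc*, members called by the first rule, the 3 members with the smallest and the 3 with the largest p, the most and the least abundant member, and 1 or more members of each role. Of other lists, genes called by the first rule (at most 5) or otherwise the 3 with the smallest p are named. *Odc1*, *Rpl23*, *Dcn*, *Lum*, *Kcnj8*, *Abcc9* and *Il11* were named after their values were seen. Some genes of the lists, and counts that rest on them, are not reported here. Alternatives were RLE, library size only, iterative TMM after TCC, DESeq2 1.42.0, no filter, at least 10 tags in all 6 libraries, the replicate block, a fit without mitochondrial and ribosomal protein genes, and each library left out in turn.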

Additional observations from a re-analysis of the deposited data

How the results depend on the processing

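*Myc* and *Nop58* were lower in IL-11+ fibroblasts in all 14 alternatives, with adjusted p at or under 0.00657 and 0.0193. The log2 fold change of *Myc* ranged from -1.19 to -0.97 over the fits without 1 library and passed 2-fold in all but 2 of them. With the replicate block it was -1.05 (adjusted p = 3.5e-05), the same 2 members were called, and no call of a member was gained or lost. The median log2 fold change of the members ranged from -0.07 to 0.07 over the fits without 1 library. Without a filter on low genes 1 member, *Polr1b*, was called higher by either rule, because its 42 tags then enter the test. In that fit 427 of all 20327 symbols were higher by the first and 812 by the second rule. The IL-11- libraries stood at about the floor for *Polr1b*. With at least 10 tags in all 6 libraries, 256 of all genes were lower by the first and 509 by the second rule, where genes at few tags in IL-11+ libraries leave the test. Over the fits without 1 library, all genes lower numbered 341 to 579 by the first and 448 to 733 by the second rule, and all genes higher 418 to 541 by the second rule, where fewer libraries enter. Scaling by library size only lowered all log2 fold changes by a median of 0.08.

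For 9 of the 35 tested members the 95% confidence interval reached past a fold change of 2. They include the called *Myc* and *Nop58*, at 453 and 1350 tags over the 6 libraries, and members with few tags such as *Grwd1*, at 58. With 3 libraries per group an exact permutation test cannot go below 0.1. Tag counts measure RNA, and neither MYC protein, ribosome number nor the rate of assembly was measured here. The IL-11- libraries hold more RNA of smooth muscle and pericyte markers, so that the cell mixture and the state of the fibroblasts cannot be told apart in these data.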
